A study of Mus musculus with 6 samples.

Results

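The 9 genes described here encode proteins that hematopoietic cells use to home, stay in a niche or leave it: the chemokine receptors Cxcr4, Ccr2 and Cxcr2, the sphingosine-1-phosphate receptor S1pr1, the selectin ligand Selplg, and the integrin subunits Itga4, Itgb1, Itgal and Itgb2. They are given by name, with earlier results of these data known when they were chosen, and each was matched by its symbol to a mouse Ensembl identifier in the gene counts. They are 9 of 38293 genes counted, and all 9 passed the expression filter that kept 14396 genes. No selectin itself is among them. Their mRNA was measured by RNA-seq in 6 libraries, each from 1 C57BL/6 embryo at embryonic day 14.5, and 3 of the embryos were wt while the other 3 had the genotype VavCre+ hnRNP L fl/fl and are called hnRNP L deficient or mutant. The study's methods describe the cells as sorted Lin- cKit+ cells of the fetal liver (FL), a population of stem cells and progenitors that lacks the surface antigens of mature lineages and carries the receptor cKit. In the mutant embryos the Vav promoter drives Cre recombinase in hematopoietic cells, where it deletes the floxed hnRNP L alleles. The labels call the controls wild-type, and the study's text describes the wt samples of the RNA-seq as L fl/fl, that is with floxed alleles. The labels give the tissue as whole embryo. The 3 libraries of a group are separate embryos, numbered here in the order in which they were listed. The embryo numbers in the labels begin alike for wt replicate 1 and mutant replicate 1, and for mutant replicates 2 and 3, and what a shared beginning means, such as a litter, is not given in the sources used here. Mutant replicates 2 and 3 were also the closest pair of libraries, with a chi-square of 19.6 per gene, against 24.2 to 362 for the other pairs. The pair of wt replicate 1 and mutant replicate 1 stood at 87.1. Replicate 1 of wt was nearer to mutant replicate 2 (60.3) than to wt replicate 3 (73.6) or wt replicate 2 (225). Whether the 3 mutant embryos come from separate litters cannot be told.

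Homing proceeds in steps. Selectins on endothelium catch glycosylated ligands such as PSGL-1, the product of Selplg, and let a cell roll. Chemokines bound by G protein coupled receptors then switch integrins to their adhesive form, and integrins hold the cell on Vcam1, Icam1 or fibronectin. Cxcr4 and the integrin of Itga4 and Itgb1 are known for holding stem cells in their niche, while S1pr1 is known for guiding cells toward the lipid sphingosine-1-phosphate in blood. The floxed gene, Hnrnpl, encodes an RNA-binding protein of the nucleus that favours CA-rich RNA.

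Promoter sequences are shown for 3 of the 9 genes: Cxcr4 and Cxcr2, which varied strongly between embryos, and Itgb1, the steadiest of the 9. Ccr2 also varied strongly, and its window is described below without its sequence. The RefSeq promoter table held 5 of the 9 genes, which are Cxcr4, Ccr2, Cxcr2, Itga4 and Itgb1. The 200 bases before the RefSeq start site are given 5′ to 3′ on the strand of the gene (GRCm38.p6, Cxcr4 at chr1:128592300-128592499 on the minus strand, Cxcr2 at chr1:74153794-74153993 and Itgb1 at chr8:128685454-128685653 on the plus strand). Capitals mark matches, on either strand, to 4 motifs of 6 letters: GAGGAA as bound by ETS factors such as PU.1, TGTGGT as bound by RUNX factors, AGATAA as bound by GATA factors, and the TATA box letters TATAAA.
Cxcr4: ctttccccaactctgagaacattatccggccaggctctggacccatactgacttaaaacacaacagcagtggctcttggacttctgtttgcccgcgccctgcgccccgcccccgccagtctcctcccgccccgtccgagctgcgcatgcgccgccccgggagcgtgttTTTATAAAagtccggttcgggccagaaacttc
Cxcr2: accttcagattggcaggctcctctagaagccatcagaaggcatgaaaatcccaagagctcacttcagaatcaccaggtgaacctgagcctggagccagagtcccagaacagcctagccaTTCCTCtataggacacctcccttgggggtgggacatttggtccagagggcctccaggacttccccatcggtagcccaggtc
Itgb1: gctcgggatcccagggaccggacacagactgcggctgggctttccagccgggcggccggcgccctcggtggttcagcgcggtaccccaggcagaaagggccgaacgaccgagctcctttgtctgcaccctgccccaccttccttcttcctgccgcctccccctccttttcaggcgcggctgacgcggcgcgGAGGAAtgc
The Cxcr4 window held TATAAA from position -30 on the gene's strand and, overlapping it, from -32 on the other strand, with positions counted back from the start site. This motif occurred in 10.6% of 27025 RefSeq promoter windows of the same length. GAGGAA occurred in 18.9% of windows, and was found at -81 on the opposite strand before Cxcr2 and at -9 on the gene's strand before Itgb1. Of the windows not printed, that of Ccr2, which lies inside an exon of another annotated Ccr2 transcript, held AGATAA at -97 on the opposite strand (7.98% of windows) and Itga4 held TGTGGT at -60 on the opposite strand (11.3% of windows). No motif was shared by the 3 chemokine receptors, and GC content was 61% for Cxcr4, 56% for Cxcr2, 38% for Ccr2, 67.5% for Itga4 and 70% for Itgb1. These matches describe letters in a window and were not tied to the expression of the genes.

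Libraries held 55952160 to 76157226 reads on genes, at which 3 reads correspond to between 0.0402 and 0.0540 CPM, the unit of level used here, which scales reads to the TMM-normalized size of the library. Hnrnpl (chr7:28808541-28822266) was measured first as a check of the labels. In wt replicates 1 to 3 its level was 552, 531 and 528 CPM, and in mutant replicates 1 to 3 it was 242, 288 and 270 CPM. Its log2 fold change was -1.01 ± 0.088 (SE, n = 3 against 3), with an adjusted p = 0.00724 by edgeR's quasi-likelihood test with Benjamini-Hochberg adjustment over all genes tested. The wt embryos were unlike each other. The summed level of 12 neutrophil lineage markers was 572, 9377 and 1499 CPM in the wt libraries in the same order, and 246, 1119 and 1199 CPM in the mutant ones. The sum of 12 monocyte and macrophage markers, 11 of which were tested, followed the same order, with 44.5, 320 and 92.0 CPM in wt against 11.9, 53.2 and 60.3 CPM in mutant libraries. Both sums were highest in wt replicate 2 and lowest in hnRNP L deficient replicate 1, and wt replicate 1 lay below hnRNP L deficient replicates 2 and 3. Gene by gene, 4 of the 11 tested monocyte and macrophage markers and 0 of the 12 neutrophil markers were called lower, against 9.85% of all genes tested. Per the methods, the lineage cocktail used on FL cells held no antibody to CD11b, a marker of myeloid cells. The 10 progenitor markers, none at or under the level of 3 reads, summed to 602, 876 and 889 CPM in wt and 439, 405 and 401 CPM in mutant libraries, and 6 of them were lower by the test. Erythroid markers summed to 3552 to 4311 CPM in wt and 3493 to 4436 CPM in mutant libraries. In such bulk libraries fewer cells of a type and less RNA per cell cannot be told apart.

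All 9 genes had a lower mean level in hnRNP L deficient than in wt libraries, as had 52.5% of all genes tested. Ccr2, S1pr1 and Selplg were down-regulated at an adjusted p under 0.05, so that 3 of 9 were called lower against 9.85% of all genes tested, and 0 of 9 were called higher against 9.32%. The 0 count held at an unadjusted p under 0.05 as well, where 5 of 9 passed, all lower, against 37.6% of all genes in either direction, and DESeq2 and limma-voom also called no gene of the 9 higher. In 5 of 9 genes (Ccr2, Cxcr2, S1pr1, Selplg and Itgal) every hnRNP L deficient library lay below every wt library, which was so for 22.7% of all genes tested. The median log2 fold change was -0.99 over the 9 genes and -0.026 over all genes tested. The groups differed in spread too: the SD relative to the mean was larger in wt than in hnRNP L deficient libraries for 9 of 9 genes, and for 81.7% of all genes. Leaving out wt replicate 2, the embryo with the most neutrophil marker RNA, gave 5 called genes, Ccr2, S1pr1, Selplg, Itga4 and Itgal, against 12.7% of all genes called lower. That embryo also had the highest sums of monocyte, mast cell, megakaryocyte, B lineage, T and NK lineage, endothelium and stroma markers. Leaving out wt replicate 3 or any hnRNP L deficient library gave 0 of 9, in fits that called only 5 to 17 of all genes. Without wt replicate 1 the count was 5 of 9, in a fit that called 2479 of 14766 genes lower.

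**Figure D1:**
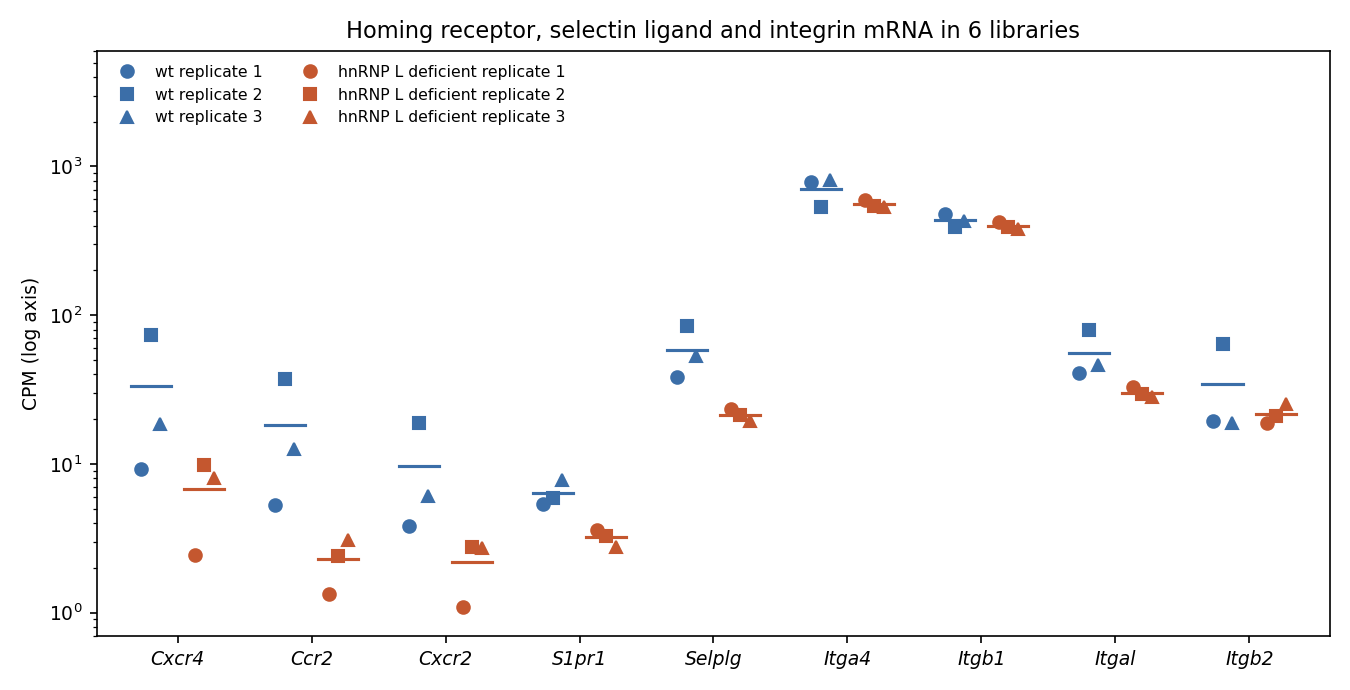
mRNA level of the 9 genes in each of the 6 libraries, in CPM on a log axis. Blue marks are wt and red marks hnRNP L deficient embryos, the shape gives the replicate, and the line is the mean of 3 libraries. The square of wt replicate 2 stands highest for 6 of the 9 genes, and the red marks of Ccr2, Cxcr2, S1pr1, Selplg and Itgal all lie below the blue ones.

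Chemokine receptors differed most between embryos. Cxcr4 (ENSMUSG00000045382, chr1:128588199-128592293, minus strand), the receptor for Cxcl12, measured 9.29, 73.0 and 18.6 CPM in wt libraries, given here and throughout in the order of replicates 1 to 3, and 2.44, 9.84 and 8.05 CPM in mutant libraries. The groups overlapped, since hnRNP L deficient replicate 2 was above wt replicate 1, and wt embryos alone spanned a 7.86-fold range. The mean was 33.6 ± 34.4 CPM in wt and 6.78 ± 3.86 CPM in mutant libraries (SD, n = 3 each). The log2 fold change was -2.31 ± 0.94 (SE) with a 95% confidence interval of -4.68 to 0.061, and it did not pass the test, with an edgeR adjusted p = 0.140. Without wt replicate 2 the log2 fold change was -1.04, with an edgeR adjusted p = 0.280. Cxcr4 passed the threshold in 0 of 14 alternative analyses and had a negative value in 14 of them.

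Ccr2 (ENSMUSG00000049103, chr9:124101950-124113557, plus strand) is the receptor for Ccl2 and Ccl7, which draw monocytes out of the marrow. It measured 5.28, 37.2 and 12.6 CPM in wt and 1.34, 2.40 and 3.09 CPM in mutant libraries. All hnRNP L deficient libraries were below all wt libraries, and wt replicate 2 was the highest. The mean fell from 18.4 ± 16.7 to 2.28 ± 0.886 CPM (SD, n = 3 each), a log2 fold change of -3.01 ± 0.78 (SE; 95% confidence interval -4.92 to -1.10; edgeR adjusted p = 0.0470). This was the largest change among the 9 genes. Without wt replicate 2 it measured -1.97 with an edgeR adjusted p = 0.0204. The call was lost when wt replicate 3 or any hnRNP L deficient replicate was left out (edgeR adjusted p between 0.0750 and 0.157) and when no expression filter was applied (edgeR adjusted p = 0.101).

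Cxcr2 (ENSMUSG00000026180, chr1:74153989-74161246, plus strand) is the receptor for Cxcl1, Cxcl2 and Cxcl5 and governs the release of neutrophils. It measured 3.82, 18.9 and 6.12 CPM in wt and 1.09, 2.75 and 2.73 CPM in mutant libraries. The groups did not overlap, yet the log2 fold change of -2.13 ± 0.68 (SE; 95% confidence interval -3.78 to -0.49) missed the threshold, with an edgeR adjusted p = 0.0726. It passed with DESeq2 (adjusted p = 0.00148), with limma-voom (adjusted p = 0.0384) and by edgeR without wt replicate 1 (adjusted p = 0.0276). Without wt replicate 2 the log2 fold change was -1.18, with an edgeR adjusted p = 0.0749.

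Cxcr4, Ccr2 and Cxcr2 thus shared their extreme libraries, though not their full order. Each was highest in wt replicate 2 and lowest in hnRNP L deficient replicate 1, as were neutrophil and monocyte marker sums. Only 19.7% of all genes tested had their lowest level in hnRNP L deficient replicate 1, and 31.7% had their highest in wt replicate 2. The part of myeloid cells in these differences was not tested. Between these extremes the receptors and the marker sums parted. Mutant replicates 2 and 3 had more neutrophil and monocyte marker RNA than wt replicate 1, but less Ccr2 and less Cxcr2 mRNA. For Cxcr4, replicate 3 was below and replicate 2 above wt replicate 1. The sums do not speak for each marker, since 4 of the 11 tested monocyte and macrophage markers were themselves called lower. Between wt replicate 1 and hnRNP L deficient replicate 1, whose embryo numbers begin alike in the labels, the log2 differences were -1.89 for Cxcr4, -1.90 for Ccr2 and -1.72 for Cxcr2, a comparison of 2 libraries with no test. All 9 genes were lower in the latter library, against 52.2% of all genes tested.

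**Figure D2:**
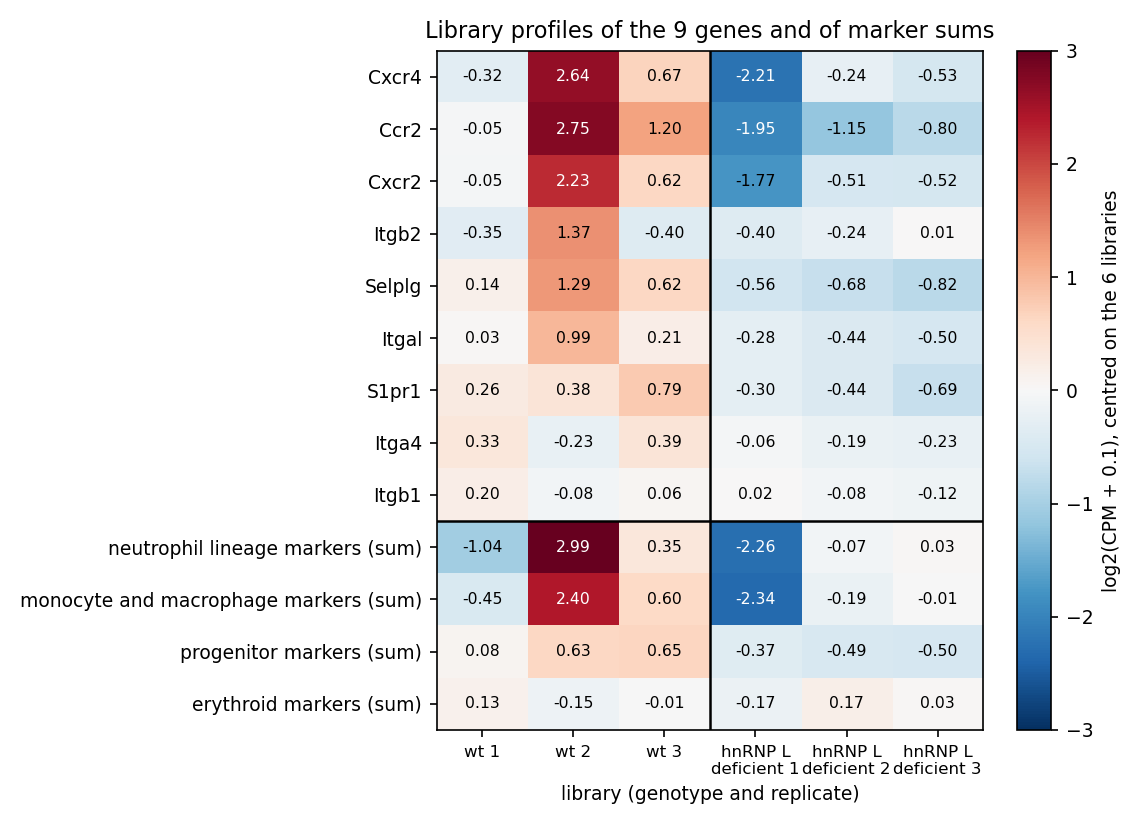
Level of the 9 genes and of 4 marker sums in each library, as log2(CPM + 0.1) minus the mean of the 6 libraries, with the value printed in each cell. Red is above and blue below the mean of a row. Cxcr4, Ccr2 and Cxcr2 reach 2.23 to 2.75 in wt replicate 2 and -1.77 to -2.21 in hnRNP L deficient replicate 1, as do neutrophil lineage markers with 2.99 and -2.26, while Itga4 and Itgb1 stay within 0.39 of their mean.

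S1pr1 and Selplg changed with less spread. S1pr1 (ENSMUSG00000045092, chr3:115710433-115715072, minus strand), which guides cells out of tissue along sphingosine-1-phosphate, measured 5.40, 5.87 and 7.83 CPM in wt and 3.62, 3.27 and 2.75 CPM in mutant libraries. Its highest library was wt replicate 3, and its highest mutant library was replicate 1, the one with the least myeloid marker RNA, so its order differed from those of the chemokine receptors. S1pr1 had the same order of libraries as the progenitor marker sum, and the part of progenitors in the S1pr1 difference was not tested. The mean was 6.37 ± 1.29 against 3.21 ± 0.440 CPM (SD, n = 3 each). The log2 fold change was -0.99 ± 0.22 (SE; 95% confidence interval -1.50 to -0.48; edgeR adjusted p = 0.0266) and moved only to -1.04 without wt replicate 2. Leaving out wt replicate 3 or any hnRNP L deficient replicate raised the edgeR adjusted p to between 0.0714 and 0.125, with values from -0.81 to -1.08.

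Selplg (ENSMUSG00000048163, chr5:113818536-113832644, minus strand) encodes PSGL-1, the main ligand of P-selectin on leukocytes. Its level was 38.1, 84.7 and 53.2 CPM in wt and 23.3, 21.4 and 19.5 CPM in mutant libraries. Mutant embryos lay close together and below every wt embryo. The mean fell from 58.7 ± 23.8 to 21.4 ± 1.87 CPM (SD, n = 3 each), a log2 fold change of -1.45 ± 0.28 (SE; 95% confidence interval -2.13 to -0.78; edgeR adjusted p = 0.0225). Without wt replicate 2 the value was -1.09 with an edgeR adjusted p = 0.00562, and without wt replicate 3 or any hnRNP L deficient replicate the edgeR adjusted p lay between 0.0602 and 0.112. Selplg and S1pr1 each passed the threshold in 10 of 14 alternative analyses, and Ccr2 in 9.

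The subunits of the α4β1 integrin VLA-4, which binds Vcam1 and fibronectin, had the highest CPM of the 9 genes and, with all 6 libraries in edgeR, the smallest fold changes. Itga4 (ENSMUSG00000027009, chr2:79255426-79333123, plus strand) measured 784, 531 and 814 CPM in wt and 597, 545 and 531 CPM in mutant libraries. Here wt replicate 2 was the lowest wt library, at the level of the mutant embryos. The log2 fold change was -0.35 ± 0.16 (SE; 95% confidence interval -0.73 to 0.037; edgeR adjusted p = 0.166). Without wt replicate 2 it was -0.52 with an edgeR adjusted p = 0.00775, and limma-voom, which gives weights to samples, also called it (-0.50, adjusted p = 0.00474). Its exons share 1124 bases with Cerkl on the other strand, which stood at 0.155 to 1.27 CPM.

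Itgb1 (ENSMUSG00000025809, chr8:128685654-128733200, plus strand), the β1 subunit that pairs with many α subunits, measured 479, 394 and 433 CPM in wt and 422, 395 and 382 CPM in mutant libraries. The groups overlapped. Its log2 fold change of -0.12 ± 0.095 (SE) had the narrowest 95% confidence interval of the 9 genes, -0.35 to 0.10, with an edgeR adjusted p = 0.378, and it passed in 0 of 14 alternatives.

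LFA-1, the integrin that binds Icam1, is made of the subunits αL and β2. Itgal (ENSMUSG00000030830, chr7:127296260-127335138, plus strand) measured 40.7, 79.2 and 46.0 CPM in wt and 32.8, 29.3 and 28.1 CPM in mutant libraries, without overlap. Its log2 fold change was -0.88 ± 0.25 (SE; 95% confidence interval -1.47 to -0.29), which just missed the threshold with an edgeR adjusted p = 0.0511. It was called in 7 of 14 alternatives, with DESeq2 at an adjusted p = 0.00245 and without wt replicate 2 at -0.53 and an edgeR adjusted p = 0.0125. Itgb2 (ENSMUSG00000000290, chr10:77530252-77565708, plus strand) measured 19.5, 64.5 and 18.9 CPM in wt and 18.9, 21.1 and 25.1 CPM in mutant libraries. Apart from wt replicate 2, wt embryos were at the level of mutant embryos or below. The log2 fold change was -0.66 ± 0.52 (SE; 95% confidence interval -1.94 to 0.62; edgeR adjusted p = 0.397). It turned to 0.18 without wt replicate 2 (edgeR adjusted p = 0.361) and to 0.072 with limma-voom (adjusted p = 0.866), so that the direction of Itgb2 rested on that embryo.

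**Figure D3:**
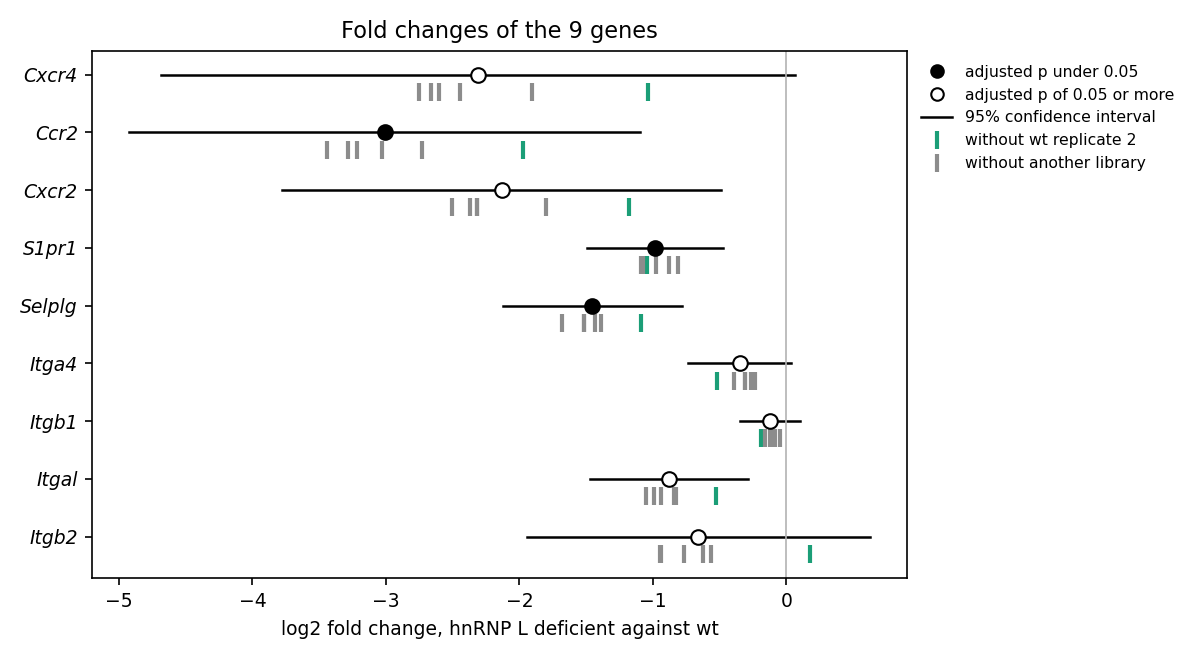
log2 fold change of each of the 9 genes in hnRNP L deficient against wt libraries (n = 3 each), with its 95% confidence interval. Filled points have an edgeR adjusted p under 0.05, and ticks under each line give the value with 1 library left out, in green for wt replicate 2. Without that embryo the value moves toward 0 for Cxcr4, Ccr2, Cxcr2, Selplg and Itgal, away from 0 for Itga4, and past 0 for Itgb2.

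Levels can be ranked between genes only per length of exon. In wt libraries the mean was 107 CPM per kb for Itgb1, 50.8 for Itga4, 18.6 for Cxcr4, 13.7 for Selplg, 11.2 for Itgb2, 8.42 for Itgal, 3.16 for Cxcr2, 2.72 for Ccr2 and 2.09 for S1pr1, all in CPM per kb. Of neighbours in this order, Itgb1 and Itga4 were the only pair whose wt libraries did not overlap. The order depends on the length used: per kb of the longest coding transcript, an alternative chosen after seeing the data, Selplg stood at 31.6 CPM per kb, above Cxcr4 at 18.6, and Itga4 at 72.7 CPM per kb no longer overlapped its lower neighbour. In hnRNP L deficient libraries, per kb of exon, Cxcr4, at 3.75 CPM per kb, had a lower mean than Selplg at 5.01, Itgal at 4.58 and Itgb2 at 7.11 CPM per kb.

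Ratios of subunits within a library do not depend on how libraries are scaled. The ratio of Itga4 to Itgb1 per kb was 0.478, 0.394 and 0.549 in wt and 0.413, 0.403 and 0.406 in hnRNP L deficient libraries. Mutant ratios lay within the wt range, with a log2 difference of -0.20 and a two-sided exact permutation p = 0.4, where 3 against 3 libraries cannot go below 0.1. The ratio of Itgal to Itgb2 per kb was 0.969, 0.571 and 1.13 in wt and 0.806, 0.644 and 0.521 in hnRNP L deficient libraries, a log2 difference of -0.40 with an exact permutation p = 0.3. Neither ratio differed beyond the spread between embryos at this size.

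The other genes of homing and adhesion were read from lists that held 163 further genes, of which 162 were counted and 126 tested. Of these, 33 were lower and 2 higher by edgeR, with a median log2 fold change of -0.48. Over all genes tested 9.85% were called lower and 9.32% higher, and these shares stand beside each list count below. As for the 9 genes, 0 of the listed genes passed when wt replicate 3 or any mutant library was left out.

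Of 27 further chemoattractant receptors, 12 were tested and 3 were lower. Ptafr, the receptor for platelet-activating factor, fell by 2.32 on the log2 scale (edgeR adjusted p = 0.0258). Ccr9, which directs cells to thymus and gut, measured 0.486, 2.53 and 1.06 CPM in wt and 0.0155, 0 and 0 CPM in mutant libraries, all of them under the level of 3 reads, so that no fold is given. The median of this list was -1.22. Like Ccr2, Ptafr and Ccr9 were highest in wt replicate 2, as were myeloid and B lineage marker sums. The part of myeloid, B lineage or other cells in them was not tested.

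In the sphingosine-1-phosphate axis 9 of 10 genes were tested and 1 was lower, which is near the share over all genes. This was S1pr4, a receptor found mainly on blood cells, with 13.2, 23.2 and 20.0 CPM in wt and 10.3, 10.4 and 11.3 CPM in mutant libraries (log2 fold change -0.82 ± 0.21, SE; edgeR adjusted p = 0.0371). Its value and that of S1pr1 were of like size, while the median of the list was -0.19.

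Selectins, their ligands and the enzymes that glycosylate them showed a divided picture, with 5 of 17 tested genes lower and a median of -0.19. Fut7 encodes the fucosyltransferase that makes PSGL-1 able to bind selectins. It measured 3.06, 10.8 and 5.17 CPM in wt and 0.544, 0.719 and 0.911 CPM in mutant libraries, without overlap, and fell by 3.13 on the log2 scale (edgeR adjusted p = 0.0150). Fut4, another fucosyltransferase of leukocytes, fell by 1.42 (edgeR adjusted p = 0.0499), and Selp, the gene of P-selectin, by 1.54 (edgeR adjusted p = 0.0425). Selplg thus fell beside Fut4 and Fut7, while 12 of the 17 tested genes of this list were not called. Fut4 and Fut7 were both highest in wt replicate 2, as were neutrophil markers. Mutant replicates 2 and 3 held more neutrophil marker RNA than wt replicate 1 and less Fut4 and Fut7 mRNA, and the part of myeloid cells in these differences was not tested.

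**Figure D4:**
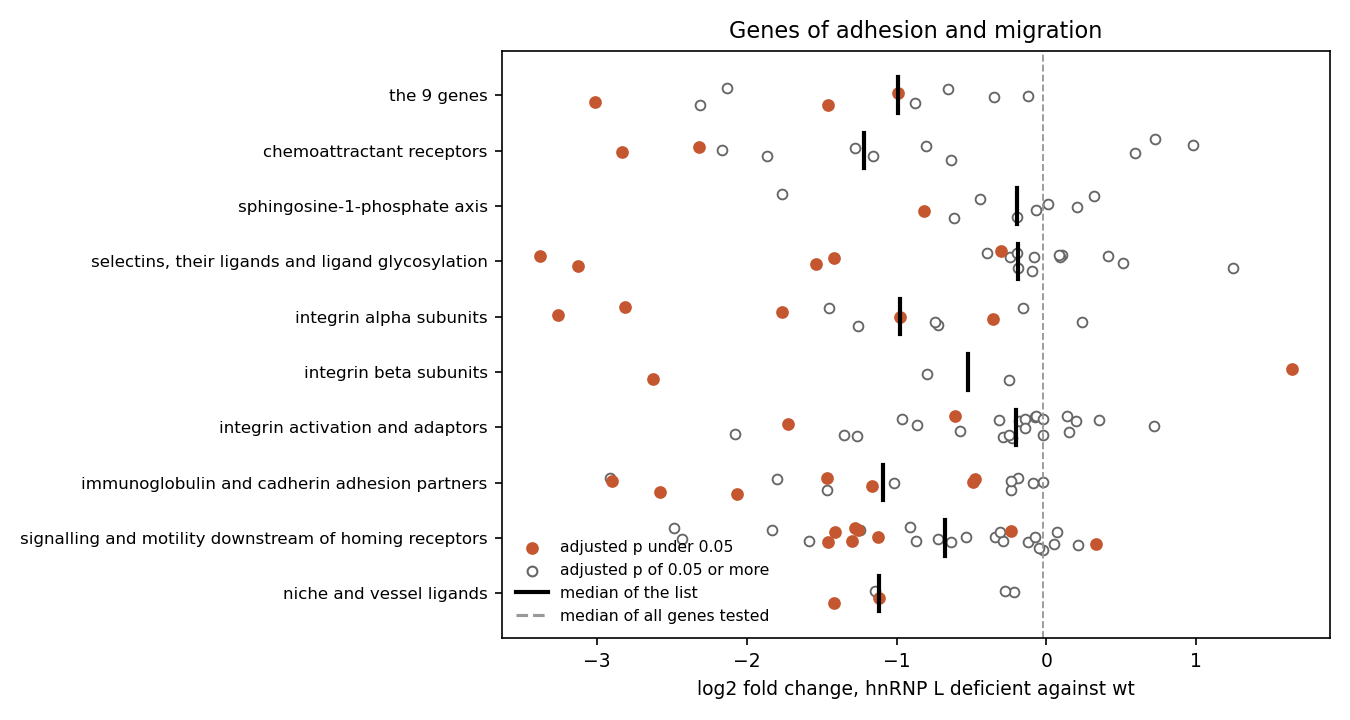
log2 fold change in hnRNP L deficient against wt libraries (n = 3 each) of the tested genes of each list, each point a gene. Filled points have an edgeR adjusted p under 0.05, black bars are list medians and the dashed line the median of all genes tested at -0.026. Ccr9 is left out as a point because its mutant libraries are under the level of 3 reads, but is counted in its list's median. Medians run from -0.19 to -1.22, and 2 filled points (Itgb4 and Cd81) lie above 0.

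Of 16 further integrin α subunits 11 were tested and 5 were lower, with a median of -0.98. Itga9, which pairs with β1 and binds tenascin and Vcam1, was the one with the smallest adjusted p, at 6.37, 7.09 and 7.36 CPM in wt and 2.49, 2.11 and 1.53 CPM in mutant libraries (log2 fold change -1.77 ± 0.23, SE; edgeR adjusted p = 0.0123). Its wt embryos lay close together, unlike those of Itgal. Itga6, a laminin-binding subunit, fell by 0.98 (edgeR adjusted p = 0.0488), and Itga5, the fibronectin-binding partner of Itgb1, by 0.36 (edgeR adjusted p = 0.0459). Itga1, a collagen-binding partner of Itgb1, fell by 2.81 (edgeR adjusted p = 0.0419). Itgax, a partner of Itgb2 found on dendritic cells, measured 0.288, 0.934 and 0.537 CPM in wt and 0.0777, 0.0765 and 0.0268 CPM in mutant libraries. Mutant replicate 3 was under the level of 3 reads, so the Itgax fall of 3.26 (edgeR adjusted p = 0.0222) rests on few reads. Without wt replicate 2 the log2 fold changes were -1.64 for Itga1, -0.58 for Itga6, -0.35 for Itga5, -1.75 for Itga9 and -2.76 for Itgax. Itgb1 mRNA stayed within its spread, and 4 of its partners, Itga1, Itga5, Itga6 and Itga9, were called lower. These 4 are picked by their calls. Itga4, also a partner, was not called, nor were 6 of the 11 further α subunits tested, and 10 of the 11 had a lower mean.

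Itgam, which joins Itgb2 to form Mac-1 (CD11b), measured 6.05, 47.4 and 9.61 CPM in wt and 2.24, 10.1 and 10.7 CPM in mutant libraries. The groups overlapped, and the log2 fold change of -1.45 ± 0.99 (SE; edgeR adjusted p = 0.337) shrank to -0.027 without wt replicate 2. Of 6 further β subunits 4 were tested. Itgb4, the partner of Itga6 in epithelia, was higher, with 0.288, 0.517 and 0.330 CPM in wt and 1.41, 1.01 and 1.13 CPM in mutant libraries (log2 fold change 1.64 ± 0.35, SE; edgeR adjusted p = 0.0258). Itgb5 fell by 2.62 (edgeR adjusted p = 0.0430), and its log2 fold change was -1.71 without wt replicate 2, its highest library. Itgb7, the other β partner of Itga4, measured 4.63, 11.8 and 6.87 CPM in wt and 5.67, 7.34 and 6.58 CPM in mutant libraries, with overlap (log2 fold change -0.25 ± 0.33, SE; edgeR adjusted p = 0.614).

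Of the proteins that switch integrins on, 2 of 24 tested genes were lower by the test, near the share over all genes, with a median of -0.20. In 13 of 24 every mutant library lay below every wt library, beside the 22.7% of all genes given above. Rassf5, the Rap1 effector that acts on LFA-1, measured 22.1, 61.0 and 31.7 CPM in wt and 9.46, 12.7 and 12.6 CPM in mutant libraries, and fell by 1.72 (edgeR adjusted p = 0.0300). Cyth1, cytohesin-1, which binds the tail of the β2 subunit, fell by 0.61 (edgeR adjusted p = 0.0416).

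Adhesion partners of the immunoglobulin and cadherin families had 7 of 16 tested genes lower, and a median of -1.09. Cd93 (-2.58, edgeR adjusted p = 0.0144), Pecam1 (-2.07, edgeR adjusted p = 0.0263) and Icam1 (-1.46, edgeR adjusted p = 0.0430), the counter-receptor of LFA-1, fell, as did Cdh1 (-2.90, edgeR adjusted p = 0.0421). Each was highest in wt replicate 2. Without that library the values were -2.18 for Cd93, -1.42 for Pecam1, -0.90 for Icam1 and -1.63 for Cdh1. Pecam1 is also one of 9 endothelial markers, whose sum was 27.2 to 58.2 CPM in wt and 14.2 to 16.6 CPM in mutant libraries. That sum was also highest in wt replicate 2, and the part of endothelium in this list was not tested. Jam3, Cd99l2 and Cd47 completed the 7 and are named here after their values were seen.

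Of 28 genes that act downstream of homing receptors, all tested, 7 were lower and 1 higher, with a median of -0.68. Rhoh, an atypical small GTPase of blood cells, measured 9.02, 15.1 and 10.5 CPM in wt and 4.38, 4.96 and 4.92 CPM in mutant libraries, and fell by 1.28 (edgeR adjusted p = 0.0163). Elmo1, which with Dock2 activates Rac behind chemokine receptors, fell by 1.41 (edgeR adjusted p = 0.0481), Gnaq, a G protein α subunit, by 1.30 (edgeR adjusted p = 0.0340) and Robo4, a guidance receptor of stem cells and endothelium, by 1.46 (edgeR adjusted p = 0.0462). Without wt replicate 2 the log2 fold change of Gnaq was -0.83. Cd81, a tetraspanin, rose by 0.33 (edgeR adjusted p = 0.0276). Dock2, Pik3cg and Gnai3 made up the other lower calls and were picked for naming after their values were seen.

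Niche and vessel ligands, of which 5 of 12 were tested, had 2 lower genes and a median of -1.12. Angpt1, the Tie2 ligand that stem cells and their niche make, measured 29.8, 44.0 and 34.7 CPM in wt and 14.4, 14.0 and 12.3 CPM in mutant libraries (-1.41 ± 0.16, SE; edgeR adjusted p = 0.0102). Fn1, fibronectin, a ligand of VLA-4 that hepatocytes secrete, fell by 1.12 (edgeR adjusted p = 0.0229). Hepatocyte markers, 2 of 10 of which were lower, summed to 124 to 259 CPM in wt and 26.2 to 80.3 CPM in mutant libraries, and their part in the Fn1 difference was not tested. The chemokines Cxcl1, Cxcl2, Cxcl5, Ccl2 and Ccl7, ligands of Cxcr2 and Ccr2, were too low to be tested.

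Exon usage was examined because Hnrnpl encodes a splicing factor. Exon bins are the pieces into which the annotation divides exons, and usage is the change of a bin relative to the other bins of its gene. Of 152 bins in the 9 genes, 139 had the mean of at least 10 reads needed for a test, in 3 wt and 2 hnRNP L deficient libraries. No bin passed at an adjusted p under 0.05 by edgeR's diffSpliceDGE (0 of 139, against 0.0288% of all bins tested), and none at an unadjusted p under 0.05 (0 of 139, against 1.03% of all bins). With limma's diffSplice 0 of 139 also passed at an unadjusted p under 0.05, against 2.67% of all bins. With shares this small over all bins, 0 of 139 does not show that exon usage was unchanged. The smallest unadjusted p were 0.173 for a bin of Cxcr2 with a mean of 47 reads and 0.213 for a bin of Itgb1 with a mean of 18 reads, both by diffSpliceDGE, and log2 usage ranged from -1.12 to 1.62 over the 139 bins. Hnrnpl itself had 1 bin at an adjusted p under 0.05 and 7 at an unadjusted p under 0.05, out of 37 tested.

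Cd44, a hyaluronan receptor of stem cells whose variable exons are a textbook case of alternative splicing, also bears a selectin ligand. Its mRNA level was 185, 209 and 159 CPM in wt and 184, 166 and 167 CPM in mutant libraries, and was not called (log2 fold change -0.096 ± 0.11, SE; edgeR adjusted p = 0.561). Its bins 10 to 20 had means of 10 to 49 reads, against 84.2 to 4378 reads in the tested bins on either side. Of 27 tested bins 0 passed by diffSpliceDGE at an unadjusted p under 0.05 (smallest 0.177), and limma's diffSplice gave 1 at an unadjusted p = 0.0259.

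CA repeats were counted in the longest coding transcript of each gene, since hnRNP L binds them. The longest unbroken alternation of C and A was 8 bases in Itga4 and 5 or 6 bases in the other 8 genes, against a median of 6 over 12487 genes, and 20.6% of those genes had a run of 8 bases or longer. The Itga4 stretch is shown with 4 bases on each side, the run in capitals.
Itga4: aaatCACACACAtttt
Introns, where splicing factors also bind, were not searched, and the run lengths were not tied to the fold changes.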

How the data were processed

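RNA-seq of 3 wt and 3 VavCre+ hnRNP L fl/fl E14.5 FL samples was analysed, with groups taken from the sample labels and cells and genotype from the study's methods. The authors prepared paired-end stranded libraries, aligned reads to GRCm38 with TopHat2 2.0.10 (per the submitters' processing notes), and deposited unnormalized counts per Ensembl gene, made with HTSeq, and per exon bin. HTSeq options and the annotation release are not given in the sources used here. Summary lines that name no gene (reads outside genes or not unique to one) held 46.7 to 53.3% of the reads counted per library and were left out. Depth, 55952160 to 76157226 reads, makes counting error small for genes with many reads, where the spread between embryos limits precision. It is not small for genes near the level of 3 reads, such as Ccr9 and Itgax, or for exon bins with few reads. P-values measure the spread between 3 embryos a group.

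Counts were normalized by TMM, filtered by filterByExpr and tested with edgeR 4.0.16 (quasi-likelihood, robust, Benjamini-Hochberg, threshold 0.05) in R 4.3.3, without covariates. The study's DESeq was replaced by DESeq2 1.42.0 as an alternative, beside limma 3.58.1 voom with sample weights, other scalings and filters, and leaving out each library. For exon usage, diffSpliceDGE was run on bins averaging 10 reads or more in 5 libraries, as bin counts of mutant replicate 1 were not used here. Fits were also run on simulated counts with the same, smaller spread in both groups. Spread here was larger and differed between groups, so that run does not show the error rate in these data. Positions and exon lengths are from GENCODE M21, promoters from RefSeq (GRCm38.p6), and 94.9% of identifiers matched a symbol.

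The members and lists were chosen with earlier results of these data known, and list counts support nothing beyond these libraries. Genes named are the 9, Hnrnpl, up to 4 called genes with the largest change per list and direction, the partner subunits Itga5, Itgam, Itgax and Itgb7, Cd44, and for each of the 9 genes the 2 genes with the most similar profile. Some genes that meet this rule are counted in their lists but are not reported here by name.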

Additional observations from a re-analysis of the deposited data

How the results depend on the processing

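Across 14 alternative analyses, Ccr2, S1pr1 and Selplg kept their direction. Itgb2, which was not called, reversed to 0.072 with limma-voom and ranged from -0.95 to 0.18 when 1 library was left out (0.18 without wt replicate 2). The count of called genes among the 9, 3 in the analysis reported, was 5 with DESeq2, 6 with limma-voom and 0 to 5 when 1 library was left out. Of all 14396 genes tested, DESeq2 called 2236 lower and limma-voom 2774. Among the other listed genes the count of 35 became 55 with DESeq2, 62 with limma-voom and 0 to 57 when 1 library was left out. Over all genes 2759 calls became 4300 with DESeq2, 5350 with limma-voom and 5 to 4791 when 1 library was left out (4791 without wt replicate 1, 5 without wt replicate 3, and 17, 8 and 7 without hnRNP L deficient replicates 1, 2 and 3). The cause was not tested. Of all calls, 48.6% were higher in hnRNP L deficient cells after TMM and 37.8% after scaling to total counts, where the median of all genes was -0.096. Exon bin calls in the 9 genes stayed at 0 under limma, a minimum of 50 reads and leave-one-out. The subunit ratio difference ranged from -0.33 to -0.09 for Itga4 over Itgb1 and from -0.69 to -0.20 for Itgal over Itgb2 when 1 library was left out. No paired analysis was possible because the labels number embryos without saying what a shared beginning means, and only 1 such beginning joins a wt and a mutant embryo. A size of 3 libraries a group, with wt embryos that span a 7.86-fold range for Cxcr4, limits what could be called.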

Other observations

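For each of the 9 genes, the 2 genes with the most similar profile over the 6 libraries were found by the root mean square difference of centred log2 CPM among 9582 genes with a mean of at least 5 CPM. The nearest were Mtus1 (0.166) and Lbp (0.167) for Cxcr4, Tifab (0.148) and Parp8 (0.177) for Ccr2, and Lpcat2 (0.0810) and Cd52 (0.0927) for Cxcr2, all in log2 units. Selplg lay nearest to Btg1 (0.0674) and Cd1d1 (0.0795), and Itgal to Trim12c (0.0485) and Tram2 (0.0515). The nearest genes of Itgb2 were Sat1 (0.130) and Cited2 (0.151), and those of Itga4 were Jmjd1c (0.0200) and Mllt3 (0.0355). Itgb1 lay nearest to Elf2 (0.0118) and Senp6 (0.0240). S1pr1, which itself has a mean under 5 CPM, was nearest to Zfp395 (0.0932) and Hspa12b (0.0967). Genes that vary little, such as Itgb1, have small distances for that reason alone, so distances are not compared between the 9 genes.

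Tifab, the nearest to Ccr2, measured 11.8, 93.0 and 32.8 CPM in wt and 3.00, 7.24 and 7.39 CPM in hnRNP L deficient libraries. Jmjd1c, the nearest to Itga4, measured 209, 145 and 223 CPM in wt and 160, 151 and 147 CPM in hnRNP L deficient libraries, and shared with Itga4 the low level in wt replicate 2.

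Marker sums of the cell types not given so far were as follows. Mast cell and basophil markers summed to 41.9 to 267 CPM in wt and 24.2 to 95.0 CPM in hnRNP L deficient libraries, megakaryocyte markers to 109 to 162 and 96.2 to 125 CPM, B lineage markers to 6.14 to 26.1 and 1.96 to 3.44 CPM, T and NK lineage markers to 3.53 to 7.24 and 2.46 to 2.75 CPM, and stroma and mesothelium markers to 10.5 to 18.9 and 7.16 to 8.83 CPM. Each of these sums was highest in wt replicate 2. Cd3d, Ncr1 and Wt1 were at or under the level of 3 reads in all libraries.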
